A study of Mus musculus with 30 samples.

Results

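The retina of *R90W/+* mice was compared between postnatal day (P) 21 and P10, with 3 libraries at each age, 6 of the 30 libraries of the series. *R90W/+* mice carry 1 WT copy of *Crx* and 1 knock-in copy in which a missense change of the homeodomain lowers binding to DNA. The mutation is in the germ line, so all cells that use *Crx* carry it at both ages. The same ages of WT mice and of *E168d2/+* mice served for comparison, again with 3 libraries for each age. *E168d2/+* mice carry a frameshift copy of *Crx* that makes a shortened protein beside 1 WT copy. All 3 genotypes are on the C57BL6/J background. Each library pools 4 retinas from 1 male and 1 female, and no treatment is given. The WT mice of P21 were littermates of mutant mice, which is not stated for P10. RNA of the whole retina was sequenced and expressed as CPM, the reads on a gene scaled to a fixed total of reads on all genes. Because whole retinas were used, fewer cells of a type and less RNA per cell cannot be told apart.

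CRX is a homeodomain transcription factor of rods, cones and some bipolar cells. In mice the last rods are born in the first postnatal days, and over the following weeks photoreceptors build outer segments and synapses and take up the proteins of phototransduction, by which light lowers cGMP and closes cation channels. In the same weeks Müller glia mature, progenitor genes are switched off, the eyes open and the retinal vessels are remodelled.

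Promoters of the rod phototransduction list are shown because many hold the short sequence that CRX is known to bind. Of 20 listed genes 13 had an entry in the RefSeq promoter table (GRCm38.p6), and 7 of these (53.8%) held TAATCC, or GGATTA on the other strand, in the 250 bases before the start. Among all tested genes with an entry the share was 449 of 8585 (5.23%), among genes higher at P21 it was 23 of 254 (9.06%), and among genes lower at P21 it was 18 of 253 (7.11%). The share was thus largest in the rod list. Among genes higher or lower at P21 it was far under that of the rod list and above that of all tested genes. These shares were not tested against each other. Those of *Guca1a* at chr17:47400607-47400856 (minus strand), *Gucy2e* at chr11:69237023-69237272 (minus strand) and *Cnga1* at chr5:72642753-72643002 (minus strand) are given from 5′ to 3′ along the gene, with the motif in capitals. It lies 57 bases before the start in *Guca1a*, 42 in *Gucy2e* and 228 in *Cnga1*. A match describes the letters and not a bound site.
Guca1a: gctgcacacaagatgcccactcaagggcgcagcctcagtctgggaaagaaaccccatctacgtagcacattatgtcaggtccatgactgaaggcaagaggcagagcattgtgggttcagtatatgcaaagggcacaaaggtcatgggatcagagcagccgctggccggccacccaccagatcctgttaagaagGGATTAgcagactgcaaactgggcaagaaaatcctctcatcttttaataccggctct
Gucy2e: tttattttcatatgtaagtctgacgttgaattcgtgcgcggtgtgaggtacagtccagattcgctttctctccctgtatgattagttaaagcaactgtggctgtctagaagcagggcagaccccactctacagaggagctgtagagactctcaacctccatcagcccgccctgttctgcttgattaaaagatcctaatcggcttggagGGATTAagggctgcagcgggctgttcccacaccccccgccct
Cnga1: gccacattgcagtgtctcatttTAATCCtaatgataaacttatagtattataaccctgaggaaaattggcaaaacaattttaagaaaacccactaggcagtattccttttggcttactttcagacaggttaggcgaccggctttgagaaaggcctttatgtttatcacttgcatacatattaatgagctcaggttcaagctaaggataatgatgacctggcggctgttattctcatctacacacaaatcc
*Guca1a* encodes a calcium sensor of the cyclase that *Gucy2e* encodes, and *Cnga1* the rod channel that their product cGMP opens. Their log2 changes from P10 to P21 in *R90W/+* were 4.01, 1.05 and 0.77, so promoters with this motif belonged to genes with very unequal changes.

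All 10 markers used to check the tissue were present in all 6 libraries, among them *Gnat1* and *Pde6b* of rods, *Opn1sw* and *Arr3* of cones, *Grm6* of ON bipolar cells, *Gad1* of amacrine cells, *Rbpms* of ganglion cells, *Lhx1* of horizontal cells and *Glul* of Müller glia. If the smallest CPM stands for 1 read, the libraries held 16.6 to 23.7 M reads on genes. Lens crystallins took 1.45% and 2.84% of the CPM in the P21 libraries A and C and 0.132% in the P10 library C, against 0.00417% to 0.0325% in the other *R90W/+* libraries and at most 0.00617% in WT. The 10 crystallins were therefore left out of the tests. *Crx* itself was at 1784, 1700.2 and 1667 CPM in the P10 libraries A, B and C, and at 1389, 1505 and 1342 CPM at P21. The deposited level does not separate the WT and R90W copies.

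At P21 the *R90W/+* retina had at least 2-fold higher levels of 9 of 20 rod phototransduction genes, 9 of 24 ion transport genes and 4 of 20 glycolysis genes than at P10, and lower levels of 10 of 29 genes of neurite growth, 8 of 17 vessel genes and 5 of 8 microglia genes. Of 12097 genes with 5 CPM or more in all 3 libraries of either age, 396 (3.27%) were higher and 386 (3.19%) were lower, 782 (6.46%) in all. A gene was called when limma on log2(CPM + 0.1) gave a false discovery rate (FDR) up to 0.05 and the fold reached 2. The FDR alone was met by 2094 genes with a higher (17.3%) and 5624 with a lower value (46.5%), 7718 in all (63.8%), most of them under 2-fold. The P10 and P21 libraries did not overlap for 2272 genes that were higher (18.8%) and 6102 that were lower (50.4%), together 8374 genes (69.2%). The median log2 change of all tested genes was −0.17. The 10 most abundant genes held 3.74% to 3.95% of the CPM at P10 and 6.69% to 6.96% at P21. When libraries were scaled to a common median the same test gave 539 higher and 261 lower (67.4% higher instead of 50.6%), and after quantile normalization 491 and 287 (63.1%).

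The largest rise was that of *Guca1b*, which encodes a second calcium sensor of the photoreceptor guanylate cyclase. It stood at 17.3, 36.5 and 38.8 CPM at P10 and at 952, 831 and 794 CPM at P21, a log2 change of 4.88 ± 0.239 (SE, n = 3 per age, limma FDR = 1.29e-07). Library A held the lowest value at P10 and the highest at P21, and every P21 library was far above every P10 library. In mm9 *Guca1b* lies at chr17:47522342-47529916 on the plus strand, and *Guca1a* follows 1592 bases on at chr17:47531509-47537533 on the minus strand. *Guca1a* went from 16.3, 25.0 and 24.4 CPM to 408, 322 and 324 CPM, a log2 change of 4.01 ± 0.15 (FDR = 3.21e-08). Both neighbours were therefore among the 10 largest rises.

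Other genes among the 10 largest rises included a channel gene and a neuropeptide gene. *Kcnj14*, a gene of an inwardly rectifying potassium channel, rose from 8.24, 18.5 and 18.7 CPM to 344, 297 and 309.6 CPM (log2 change 4.47). *Cck*, which encodes the neuropeptide cholecystokinin, rose from 0.659, 0.3 and 0.641 CPM to 8.47, 10.1 and 7.92 CPM (3.87). *Agxt2l1*, also called *Etnppl*, a gene of phosphoethanolamine breakdown, rose from 1.32, 1.20 and 1.23 CPM to 23.1, 22.6 and 20.6 CPM (4.04). Genes with overlapping libraries were left out when the 10 largest changes were chosen. *Fam107a* reached 54.8, 40.5 and 22.8 CPM at P21 from 1.59, 1.86 and 2.17 CPM (4.24), with the largest spread among the P21 values of these genes. *Sec1* (4.73), *2610034M16Rik* (4.32), *Traf3ip3* (4.29) and *BC030499* (3.85) completed the set. *Sec1*, *Traf3ip3* and *BC030499* each share exon sequence with a gene on the other strand, and since the counting is not stated to use strand, reads of both genes cannot be told apart.

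The deepest falls included a fatty acid carrier, a fetal noncoding RNA and receptors of vessels and migrating cells. *Tmem92* was at 12.8, 11.8 and 11.5 CPM at P10 and was listed at 0, 0 and 0.0421 CPM at P21, so no fold is given. *Fabp7*, which encodes the fatty acid binding protein of progenitors and immature glia, fell from 44.3, 38.1 and 42.3 CPM to 1.08, 1.28 and 0.843 CPM, a log2 change of −5.17 ± 0.152 (FDR = 1.57e-08). *H19*, an imprinted noncoding RNA of fetal tissues, fell from 28.9, 25.0 and 24.4 CPM to 1.08, 1.07 and 0.801 CPM (−4.61). In each of these genes the P21 libraries lay close together and far under all P10 libraries. *Aplnr*, the apelin receptor of growing vessels, fell from 17.0, 18.3 and 17.7 CPM to 0.667, 0.8 and 1.01 CPM (−4.28). *Cxcr4*, a chemokine receptor of migrating cells, fell from 15.1, 12.97 and 12.04 CPM to 0.667, 0.853 and 1.9 CPM (−3.56). *Kif19a*, a kinesin gene, fell from 219.5, 194 and 205 CPM to 13.4, 21.7 and 20.2 CPM (−3.51). Its neighbour *Btbd17*, 477 bases away on the other strand of chromosome 11, fell from 30.05, 23.5 and 24.5 CPM to 1.74, 2.08 and 3.33 CPM (−3.44). *Tubb2b* (−3.48), *Gm12802* (−4.52) and *3110035E14Rik* (−3.70) were the others. *Tubb2b* is 1 of a family of near-identical tubulin genes whose reads cannot be assigned with certainty, and *Gm12802* and *3110035E14Rik* overlap genes on the other strand.

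**Figure D1:**
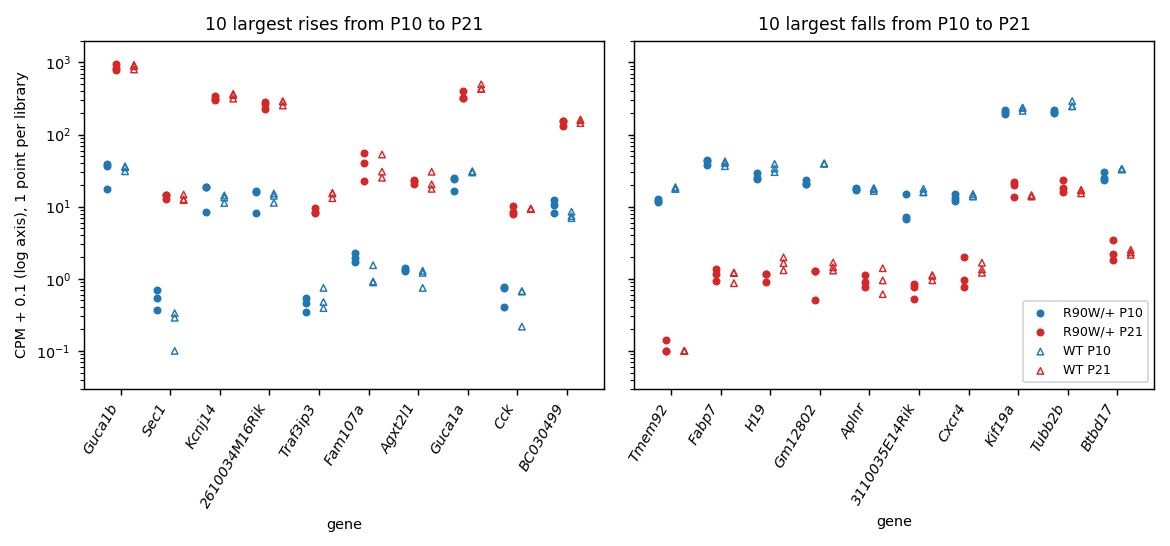
CPM + 0.1 on a log axis of the 10 genes with the largest rises (left) and falls (right) from P10 to P21 in R90W/+, 1 point per library, with R90W/+ as filled circles, WT as open triangles, P10 in blue and P21 in red. Only called genes whose P10 and P21 circles do not overlap were eligible. Guca1b goes from 17.3 to 38.8 CPM at P10 to 794 to 952 CPM at P21, and Fabp7 from 38.1 to 44.3 CPM to 0.843 to 1.28 CPM.

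All genes of the rod list had higher values at P21. Of these 20 genes of rod phototransduction 9 were called higher and 0 lower, and all 20 met the FDR. The list median was 0.77 on the log2 scale, beside −0.17 for all tested genes. *Gnat1*, the rod transducin subunit that relays the light signal, was at 505, 963 and 861 CPM at P10 and at 10400.0, 10199 and 7926 CPM at P21, a log2 change of 3.66 ± 0.204 (FDR = 2.63e-07). The P10 library A held the lowest value and the P21 library C the lowest of its age, and every P21 library was far above every P10 library. *Slc24a1*, the exchanger that removes calcium from the rod outer segment, rose from 239, 338 and 354 CPM to 1624, 1702 and 1440.3 CPM (2.37 ± 0.129). *Pde6a*, a catalytic subunit of the phosphodiesterase that breaks down cGMP, rose from 413, 587 and 573 CPM to 2379, 2381 and 2110.5 CPM (2.14 ± 0.119). *Rgs9bp* (1.70) and *Grk1* (1.10), of which the first anchors the complex that ends the transducin signal and the second encodes the opsin kinase of rods, also rose. Not all of the cascade moved as much: *Pde6b*, the partner subunit of *Pde6a*, had a log2 change of 0.64 and *Cnga1* of 0.77, both under 2-fold. The smallest change of the list was 0.21.

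Cone genes moved in both directions, with 5 called higher and 1 lower of 12. *Opn1mw*, the medium wavelength opsin, was at 8.51, 31.2 and 28.5 CPM at P10 and at 177, 202 and 203 CPM at P21 (log2 change 3.29 ± 0.375, FDR = 3.08e-05). *Opn1sw*, the short wavelength opsin, was at 122, 118 and 126 CPM at P10 and at 254, 323 and 199 CPM at P21 (1.06 ± 0.133, FDR = 6.02e-05). Both opsins rose without overlap, *Opn1mw* from a low and *Opn1sw* from a higher starting level. *Arr3*, the cone arrestin, rose from 25.4, 47.6 and 49.7 CPM to 161, 162 and 131 CPM (1.94), and *Gnat2*, the cone transducin, had a log2 change of 1.16. *Gnb3*, a G protein beta subunit of cones and ON bipolar cells, fell from 636, 718 and 729 CPM to 323, 359 and 305 CPM (−1.08 ± 0.0747, FDR = 9.99e-07). Its fold fell under 2 with median scaling (−0.91) and without the P21 libraries A and C (−0.95). The list median was 0.51. In *Opn1mw*, *Arr3*, *Gnat1*, *Guca1b* and *Kcnj14* the P10 library A was the lowest of its age.

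Among genes for the structure and synapse of photoreceptors few passed 2-fold. Of 19 genes of outer segment structure and cilium, 1 was called higher and 1 lower, with a median of 0.22. *Fscn2*, an actin bundling protein of outer segments, went from 14.2, 16.8 and 19.5 CPM to 83.3, 84.2 and 64.8 CPM (2.20), whereas *Cerkl*, a retinal dystrophy gene, went from 89.9, 90.5 and 98.9 CPM to 36.7, 40.7 and 48.0 CPM (−1.16). The fold of *Cerkl* fell just under 2 with median scaling (−0.9956), where 2 genes of the list were called higher and 0 lower. *Cerkl* shares exon sequence with a gene on the same strand and a gene on the other strand, so those reads cannot be assigned with certainty. At any fold 10 of the list met the FDR with a higher and 5 with a lower value. Of 17 photoreceptor synapse genes 2 were called higher, with a median of 0.27, and 11 met the FDR with a higher and 2 with a lower value. *Cplx4*, a complexin of ribbon synapses, had a log2 change of 1.12, and *Cabp4*, which tunes the calcium channel of the rod terminal, one of 1.04. *Cabp4* was at 48.4, 72.8 and 70.1 CPM at P10, and without the P10 library A its log2 change was 0.85, under 2-fold. In the photoreceptor retinoid cycle list 1 of 7 genes was called higher and 0 lower, with a median of 0.49, and that call was lost after quantile normalization and without the P10 library A.

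Transcription factors of photoreceptors split, with 3 called higher and 4 lower of 20 and a median of −0.35. *Prdm1*, which holds young photoreceptors away from the bipolar fate, fell from 145, 124 and 131 CPM to 24.8, 28.2 and 31.4 CPM, a log2 change of −2.25 ± 0.0897 (FDR = 4.12e-08). *Esrrb*, a nuclear receptor of mature rods, rose from 69.8, 88.1 and 79.3 CPM to 341, 334 and 394 CPM (2.17 ± 0.0884, FDR = 4.18e-08). The libraries of each age lay close together for both genes. *Mef2c*, a MADS box factor, rose from 16.2, 12.9 and 11.9 CPM to 50.7, 42.3 and 29.1 CPM (1.54), and *Nr1d1*, a nuclear receptor of rods and of the clock, had a log2 change of 1.38 and shares exon sequence with *Thra* on the other strand. *Nr2e3*, which keeps cone genes off in rods, fell from 1644, 1350.0 and 1378 CPM to 576, 631 and 580.2 CPM (−1.29). *Pias3* (−1.22), which acts with *Nr2e3*, and *Samd7* (−1.11) also fell. The upstream factors stayed under 2-fold and so were not called, which does not show that they were unchanged. *Nrl*, the rod fate factor, had a log2 change of 0.38, *Otx2*, which acts before *Crx*, one of −0.82, and *Crx* one of −0.28 ± 0.0679. At any fold 5 of the list met the FDR with a higher and 11 with a lower value, and 4 did not meet it.

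Among inner neurons some amacrine and bipolar genes were called in either direction. Of 15 tested amacrine genes 4 were called higher and 1 lower, with a median of 0.57. *Pvalb*, a calcium buffer, went from 0.769, 1.38 and 0.888 CPM to 13.8, 11.7 and 9.44 CPM (3.42), and *Penk*, an opioid peptide gene that shares exon sequence with a gene on the other strand, from 5.88, 4.8 and 6.36 CPM to 30.6, 25.8 and 26.7 CPM (2.27). *Npy*, which encodes neuropeptide Y, went the other way, from 48.9, 57.4 and 55.5 CPM to 11.1, 10.7 and 14.7 CPM (−2.15). Neuropeptide genes of the amacrine list therefore did not share a direction. Of 18 bipolar genes 1 was called higher and 2 lower. The riser was *Gabrr2*, a GABA receptor subunit of bipolar terminals, with a log2 change of 2.26. Of the fallers *Isl1*, a factor that starts the bipolar program and is also used by other cells of the young retina, went from 276, 238 and 242 CPM to 84.8, 97.8 and 119.7 CPM (−1.33). The bipolar median was 0.06, with 3 called higher under median scaling. Of 14 ganglion cell genes limma called 0, 9 had an unadjusted p under 0.05 and 7 met the FDR alone (4 higher, 3 lower), and their median of −0.05 became 0.11 under median scaling. In the horizontal cell list 1 of 5 genes was called lower and 0 higher, with a median of −0.77. With median scaling 1 was called higher and 1 lower. The FDR alone was met by 4 of these genes with a lower value and by *Calb1* with a higher one (0.90). *Ndrg1*, listed for horizontal cells and also a stress response gene, fell from 800.0, 705 and 692 CPM to 255, 248 and 312 CPM (−1.44).

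Channels of mature neurons were a further group with risers. Of 24 genes for ion transport of mature neurons, 9 were called higher and 0 lower, with a median of 0.76. *Scn4b*, a sodium channel beta subunit, rose from 1.10, 1.32 and 1.23 CPM to 9.75, 10.02 and 8.17 CPM (2.83). *Kcnj9*, a G protein gated potassium channel, rose from 25.1, 28.0 and 28.6 CPM to 86.6, 102 and 99.8 CPM (1.81), and *Kcnc2*, which supports fast firing, had a log2 change of 1.59. Of 26 glutamate and GABA receptor genes 2 were called higher, among them *Glra1*, which is a glycine receptor subunit, by 1.34. The number called in this list was 4 under median scaling and 5 without the 3 libraries rich in crystallins.

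Part of the glycolysis list was called higher at P21. Of 20 glycolysis genes 4 were called higher and 0 lower, with a median of 0.57. At any fold 19 met the FDR with a higher and 1 with a lower value. The lower one was *Ldha*, a lactate dehydrogenase gene (log2 change −0.21, limma FDR = 0.0065). *Hk2*, the hexokinase of photoreceptors, was at 27.2, 42.6 and 46.0 CPM at P10 and at 391, 407 and 332 CPM at P21, a log2 change of 3.31 ± 0.163 (FDR = 1.31e-07). *Aldoc*, an aldolase, rose from 135, 163 and 157 CPM to 474, 479.8 and 472 CPM (1.65), and *Slc16a1*, a lactate transporter, had a log2 change of 1.23. The aldolase gene *Aldoa* had a log2 change of 1.02, and of 0.94 without the P10 library A. Of 12 mitochondrially encoded genes limma called 0, 1 had an unadjusted p under 0.05 and met the FDR, and the median of 0.17 changed sign to −0.05 after quantile normalization. Of 17 cholesterol synthesis genes 2 were called higher, among them *Insig1*, the sterol sensor, by 1.07. *Elovl2*, which lengthens polyunsaturated fatty acids, fell by 1.37 on the log2 scale and *Fabp7* was the other of 2 genes called lower among 11 for very long chain fatty acids and phospholipids.

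Among Müller glia genes several rose and *Crym* fell. Of 16 genes 4 were called higher and 1 lower, with a median of 0.34. *Glul*, glutamine synthetase, which clears glutamate, was at 696, 874 and 828 CPM at P10 and at 2104, 2116 and 1853 CPM at P21 (1.34 ± 0.0913, FDR = 8.67e-07), and it shares exon sequence with a gene on the other strand. *Aqp4*, the water channel of glial endfeet, rose from 31.6, 41.4 and 38.3 CPM to 84.0, 82.2 and 84.5 CPM (1.18 ± 0.0893). *Clu*, which encodes clusterin, rose from 123, 157 and 173 CPM to 613, 523 and 516 CPM (1.88 ± 0.112). In all 3 genes the P10 library A was the lowest of its age and the ages did not overlap. *Crym*, a thyroid hormone binding protein gene, fell from 211, 177 and 169 CPM to 33.1, 35.8 and 40.6 CPM (−2.34). Of 5 tested genes of reactive glia 2 were called higher, *Il33*, an alarmin, by 1.56 and *Cebpd*, a stress factor, by 1.55, whereas *Gfap*, the usual marker of gliosis, had a log2 change of 0.18 with an FDR of 0.166.

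Of 17 genes of progenitors and neurogenesis 5 were called lower and 0 higher, with a median of −0.43, and 6 did not meet the FDR. *Sox4* fell from 109, 97.8 and 82.3 CPM to 13.1, 16.9 and 19.9 CPM (−2.54), and *Insm1* had a log2 change of −1.61. These encode transcription factors of neuronal differentiation. Of 12 tested cell cycle genes 3 were called lower and 0 higher, with a median of −0.61, and 4 did not meet the FDR. *Mki67*, the proliferation marker, fell from 10.1, 8.17 and 10.1 CPM to 3.03, 1.17 and 1.01 CPM (−2.53 ± 0.325), and *Top2a*, a topoisomerase of dividing cells, from 5.88, 5.11 and 7.55 CPM to 2.21, 0.64 and 0.969 CPM (−2.34 ± 0.351). The P21 library A, with 1.45% lens crystallins, held the highest P21 value of both genes. Library C, with 2.84%, held 1.01 CPM of *Mki67* and 0.969 CPM of *Top2a*. Whether lens cells contributed reads of these genes was not tested.

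Of 29 genes of neurite growth and guidance 10 were called lower and 0 higher, 25 met the FDR with a lower value, 4 did not meet it, and the median was −0.81. *Dcx*, doublecortin of young neurons, fell from 88.5, 75.7 and 73.1 CPM to 15.2, 14.5 and 17.4 CPM (−2.33 ± 0.0929). *Marcksl1*, a regulator of actin, fell from 278, 263 and 252 CPM to 51.1, 59.98 and 81.5 CPM (−2.07), and *Gap43*, the growth cone protein gene, from 93.9, 87.8 and 103 CPM to 28.1, 30.3 and 29.96 CPM (−1.68). No library of 1 age reached the other age for these genes.

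Of 17 endothelial and vessel genes 8 were called lower and 1 higher, with a median of −0.92. At any fold 13 met the FDR with a lower and 2 with a higher value. *Kdr*, the main VEGF receptor, fell from 326, 318 and 284 CPM to 96.4, 96.8 and 119.5 CPM (−1.57), and *Tie1* (−1.74) and *Cdh5* (−1.69), genes of endothelial signalling and junctions, moved alike. The gene called higher was *Acta2*, smooth muscle actin, from 4.23, 2.7 and 4.09 CPM to 15.0, 8.0 and 34.0 CPM (2.12 ± 0.404), with a wide spread at P21. Of 8 microglia genes 5 were called lower and all 8 met the FDR, with a median of −1.16. *Cx3cr1*, the fractalkine receptor, fell from 13.02, 11.8 and 9.08 CPM to 3.49, 4.05 and 4.3 CPM (−1.48), and the complement genes *C1qc* and *C1qb* had log2 changes of −1.32 and −1.24. Of 5 erythrocyte genes limma called 0 and 0 had an unadjusted p under 0.05, and their median moved from −0.0014 to 0.16 under median scaling.

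Of 17 clock genes 6 were called higher and 0 lower, with a median of 0.89, and at any fold 13 met the FDR with a higher and 1 with a lower value. *Hlf*, a clock output factor, rose from 88.9, 106 and 101 CPM to 307, 293 and 299 CPM (1.61), and *Bhlhe40* and *Per2*, repressors of the clock, had log2 changes of 1.67 and 1.45. The hour of collection is not given in the sources used here. Of 8 immediate early genes 4 were called higher and 0 lower, and at any fold 5 met the FDR with a higher and 1 with a lower value. *Fos*, the best known of them, rose from 5.93, 5.59 and 4.74 CPM to 22.2, 23.2 and 21.6 CPM (2.03), *Dusp1*, a phosphatase, had a log2 change of 1.47 and *Npas4*, which neuronal activity induces, one of 1.24. Of 7 heat shock genes 2 were called higher, *Hspa1a* by 1.59 and *Hspa1b* by 1.53, a near-identical pair whose reads cannot be assigned with certainty.

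**Figure D2:**
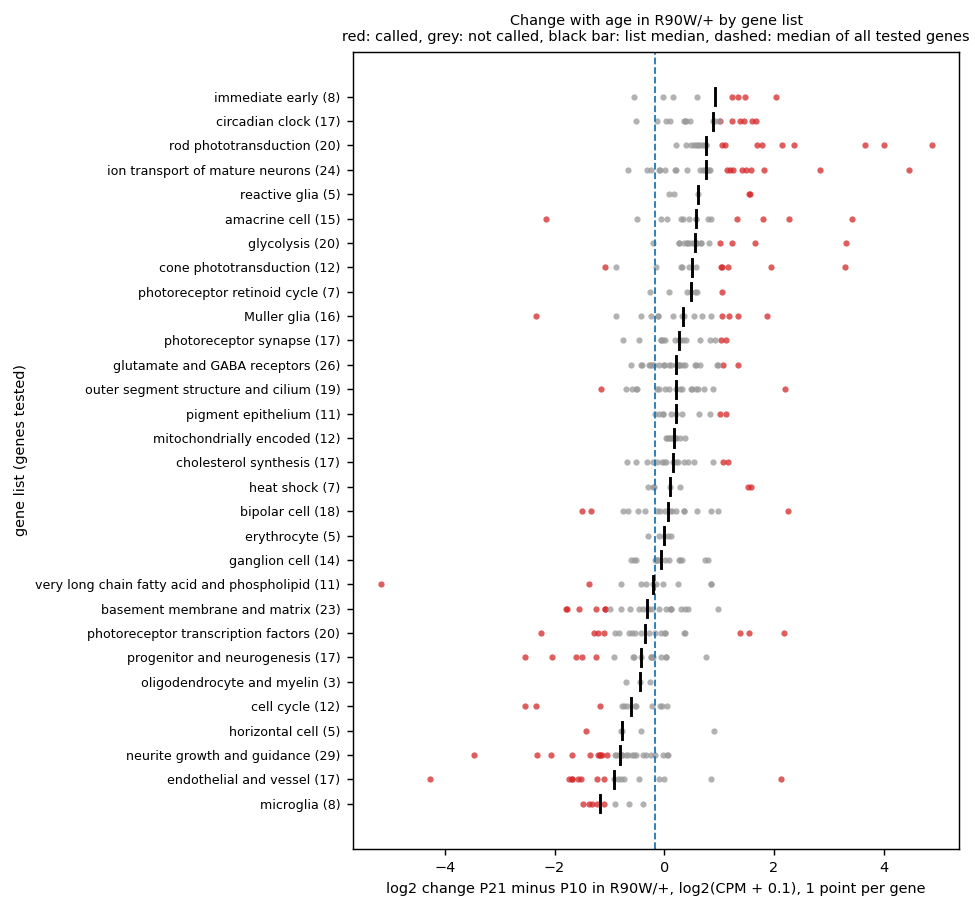
Log2 change from P10 to P21 in R90W/+ (P21 minus P10, on log2(CPM + 0.1)) of each tested gene, grouped by gene list, with called genes in red, the list median as a black bar and the median of all tested genes (−0.17) as a dashed line. Rod phototransduction (median 0.77), ion transport (0.76) and circadian clock (0.89) lie to the right of it, and neurite growth (−0.81), vessels (−0.92) and microglia (−1.16) to the left.

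Some genes of the matrix and lens lists varied among the libraries of 1 age. The basement membrane and matrix list had 6 called lower and 0 higher of 23, with a median of −0.32 that was −0.81 without the P21 libraries A and C. *Nid1*, a basement membrane linker, was at 41.5, 45.0 and 88.9 CPM at P10 and at 137, 14.4 and 67.5 CPM at P21, and *Col4a1*, a basement membrane collagen, at 162, 167 and 274 CPM and at 454, 95.3 and 219.8 CPM. The high values of both genes lay in the 3 libraries with the most lens crystallin. The P21 library B held the lowest. Its crystallin share was 0.0325%, beside 0.00417% and 0.00688% in the P10 libraries A and B. Where the reads of these genes came from was not tested. In WT the log2 change with age was −1.77 for *Nid1* and −0.94 for *Col4a1*. *Ncan*, a proteoglycan of young nerve tissue, fell in all libraries, from 93.0, 92.8 and 87.8 CPM to 23.3, 26.3 and 29.6 CPM (−1.79). *Hsf4*, a lens transcription factor, was the only gene tested from 11 lens genes other than crystallins, and stood at 1.54, 1.38 and 1.73 CPM at P10 and at 7.6, 5.01 and 15.8 CPM at P21, highest in the library with the most crystallin. WT *Hsf4* was at 4.26, 5.59 and 5.17 CPM at P21 where crystallins were at most 0.00617%.

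The summed level of the pigment epithelium list was 353.8 to 449.6 CPM at P10 and 346.2, 481.9 and 657.5 CPM in the P21 libraries A, B and C, beside 289 to 358.5 CPM and 550.5 to 846 CPM in WT. *Dct*, a melanin enzyme gene, followed it, with 55.9, 37.0 and 43.0 CPM at P10 and 19.6, 55.4 and 107 CPM at P21. Among the *R90W/+* P21 libraries A thus had the lowest and C the highest level. Library C lay within the range of WT at P21, and A and B lay under it. Of 11 tested genes of that list 2 were called higher, among them *Krt18*, a keratin, by 1.01, which was 0.71 without the P21 library C and 0.88 without the P10 library B. The part of carried over tissue in these values was not tested.

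**Figure D3:**
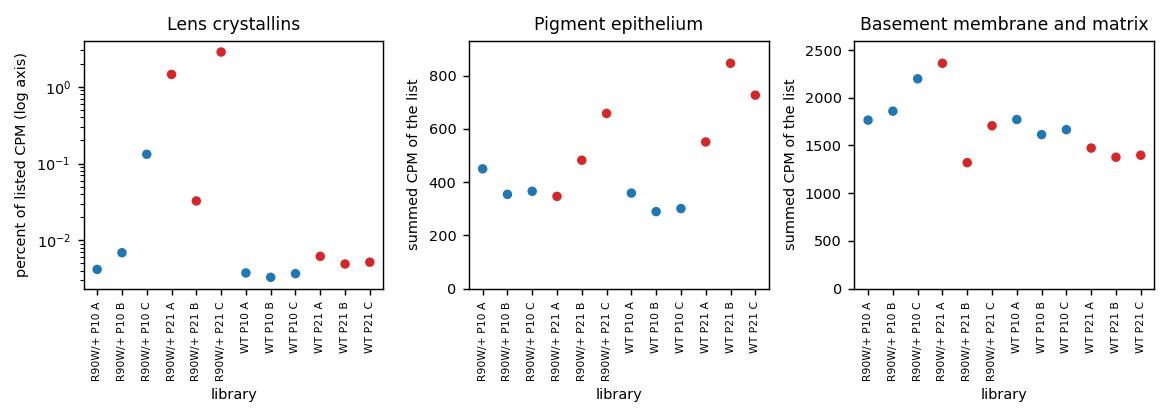
Lens crystallins as a percent of the listed CPM (left, log axis) and the summed CPM of the pigment epithelium list (middle) and of the basement membrane and matrix list (right) in each of the 12 R90W/+ and WT libraries, with P10 in blue and P21 in red. Crystallins reach 2.84% in R90W/+ P21 C and 1.45% in P21 A, and the matrix sum is 2362 CPM in P21 A and 1320 CPM in P21 B.

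Most genes called in *R90W/+* were also called in WT. Of 12201 genes tested in WT, 1077 (8.83%) were called, 586 higher (4.8%) and 491 lower (4.02%). Over 11983 genes tested in both genotypes the log2 changes had a Pearson correlation of 0.946 across genes, which are not independent replicates. Of 388 genes called higher in *R90W/+* and tested in both, 362 were also called higher in WT, as were 311 of 375 among the lower ones, and 0 genes were called in opposite directions. *Guca1b* had a log2 change of 4.67 in WT and 4.88 in *R90W/+*, *Fabp7* one of −5.19 and −5.17, and *Crx* one of −0.44 and −0.28, with WT *Crx* at 1538.5, 1601 and 1481 CPM at P10 and at 1151, 1149 and 1107 CPM at P21. For none of these 3 genes did the difference meet the FDR.

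The size of the change was then described for genes chosen in each genotype. For 551 genes called higher in WT the median log2 change per library, each P21 library against the mean of the P10 libraries of its genotype, was 1.24, 1.21 and 1.12 in *R90W/+* and 1.44, 1.46 and 1.45 in WT, a difference of −0.26. For 444 genes called lower in WT the medians were −1.25, −1.23 and −1.12 in *R90W/+* and −1.35, −1.32 and −1.31 in WT, a difference of 0.13. Since these genes were chosen on the WT libraries, the choice enlarges the WT medians, and no test is given. For 388 genes called higher in *R90W/+* the mean of the library medians was 1.44 in *R90W/+* and 1.67 in WT, a difference of −0.23, although here the choice enlarges the *R90W/+* medians. For 375 genes called lower in *R90W/+* it was −1.30 and −1.34, a difference of 0.04. The lower medians of rising genes in *R90W/+* were thus seen with either choice, and those of falling genes were nearly equal when the genes were chosen in *R90W/+*. At P10 the *R90W/+* libraries A, B and C stood 0.16, 0.31 and 0.31 above the WT mean for the genes that rose in WT, and 0.06, 0.25 and 0.26 above it for those that rose in *R90W/+*. At P21 the differences from the WT mean were −0.03, −0.02 and −0.13 for the first set and 0.04, 0.01 and −0.12 for the second.

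The change with age was then compared gene by gene between *R90W/+* and WT, as the interaction of genotype and age over the 12 libraries. Of 12315 genes 221 (1.79%) met an FDR of 0.05, 65 (0.528%) with a more positive and 156 (1.27%) with a more negative change in *R90W/+*, and 1970 had an unadjusted p under 0.05. The median size of these differences was 0.53 on the log2 scale and 30 exceeded 2-fold. In 160 of the 221 genes *R90W/+* changed in the direction of WT but less, 111 of them risers and 49 fallers in WT, in 16 it changed more, and in 45 the signs were opposite. The gap between genotypes was larger at P10 for 142 genes and at P21 for 79. The number of genes depended on single libraries: it was 415 without the *R90W/+* P10 library A, 133 without B and 102 without C, 115 and 99 without the WT P10 libraries B and C, and 136 and 133 without the WT P21 libraries A and B. Without the *R90W/+* P21 libraries A and C it was 85, of which 35 were more positive and 50 more negative, and 65 of the 221 genes remained. Without these and the P10 library C, the 3 libraries rich in lens crystallins, it was 62 (28 and 34), and 45 of the 221 remained.

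Müller glia held 7 of the 221 genes, all with a more negative change in *R90W/+*, among 16 tested. This count was 3 when 1 of the P10 libraries B and C of either genotype or of the WT P21 libraries A and B was left out, 2 without the 3 libraries rich in crystallins, and 1 with all 30 libraries in a single fit. *Glul* was at 507, 455 and 455 CPM in WT at P10, under all *R90W/+* P10 libraries (696 to 874 CPM), and at 2281, 2157 and 2074 CPM in WT at P21, where the genotypes overlapped. Its log2 change was therefore 0.86 smaller in *R90W/+* (−0.86 ± 0.112, FDR = 0.00216). *Aqp4* was at 17.1, 19.3 and 13.7 CPM in WT at P10, and 31.6 to 41.4 CPM in *R90W/+*, and at 85.1, 86.6 and 88.9 CPM in WT at P21 (difference −1.21 ± 0.148, FDR = 0.00142). *Clu* was at 100.5, 88.8 and 91.5 CPM in WT at P10 and at 519, 548 and 519 CPM at P21 (−0.62 ± 0.137, FDR = 0.0283). In these genes *R90W/+* had higher levels at P10 and values near WT at P21. *Glul* and *Aqp4* kept the call when any single library was left out (FDR up to 0.0126 and 0.00693) and without the 3 libraries rich in crystallins (0.0239 and 0.0203), but *Glul* lost it with all 30 libraries in a single fit (0.0834). *Clu* lost it in 7 of 12 cases with a single library left out (FDR up to 0.0877). *Il33*, from the reactive glia list, had the same form, with 9.78, 10.1 and 8.0 CPM in WT at P10 beside 15.6, 20.8 and 22.8 CPM in *R90W/+* (−1.10 ± 0.224, FDR = 0.0211), and lost the call in 3 of 12 such cases (FDR up to 0.0641) and without the 3 libraries (0.124).

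Of 18 bipolar and 16 amacrine genes tested, 4 and 3 also had a more negative change in *R90W/+*, and 0 of either list a more positive one. The counts were 2 and 0 without the 3 libraries rich in crystallins, and the amacrine count was also 0 without the WT P10 library B or the *R90W/+* P10 library C. *Gabrr2* was at 6.08, 5.83 and 7.3 CPM in WT at P10 and 10.6, 18.3 and 15.8 CPM in *R90W/+*, and at 80.2, 74.6 and 67.5 CPM in WT and 76.7, 71.7 and 62.0 CPM in *R90W/+* at P21 (−1.26 ± 0.214, FDR = 0.00841, but 0.0897 without the 3 libraries rich in crystallins and 0.0508 with all 30 libraries in a single fit). *Trpm1*, the cation channel of ON bipolar dendrites, had opposite signs: 336, 333 and 334 CPM at P10 and 419, 434 and 417 CPM at P21 in WT, but 459.7, 477 and 468 CPM at P10 and 335, 372 and 394 CPM at P21 in *R90W/+* (−0.70 ± 0.0732, FDR = 0.000304). At each age the genotypes did not overlap for *Trpm1*, with *R90W/+* higher at P10 and lower at P21, and its call held under these settings (FDR up to 0.00853). *Penk* (−0.71, FDR = 0.044) lost the call in 8 of 12 cases with a single library left out (FDR up to 0.119). Of the 20 rod, 12 cone and 17 photoreceptor synapse genes, 0 met the FDR of limma for the difference, and 4, 6 and 5 had an unadjusted p under 0.05, which does not show that they changed alike.

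Among progenitor genes the fall was smaller in *R90W/+* for *Insm1*. *Insm1* was at 199, 207 and 200.2 CPM in WT and 220.1, 189.6 and 174 CPM in *R90W/+* at P10, and at 39.5, 34.9 and 33.6 CPM in WT and 51.4, 60.8 and 80.9 CPM in *R90W/+* at P21 (difference 0.87 ± 0.172, FDR = 0.0181). The genotypes overlapped at P10 and were apart at P21. The call was lost without the P10 libraries WT B, WT C or *R90W/+* C (FDR up to 0.0564).

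The most positive differences from WT were those of *Spp1* (1.54), *4921511H03Rik* (1.30), *Gm13301* (1.30), *Psd2* (1.04) and *Gm17327* (1.03). *Spp1*, which encodes osteopontin, was at 14.4, 15.5 and 12.7 CPM at P10 and at 14.7, 17.5 and 16.0 CPM at P21 in WT, whereas in *R90W/+* it rose from 4.61, 4.8 and 3.8 CPM to 14.7, 16.2 and 13.4 CPM (FDR = 0.000304). Only the *R90W/+* P10 libraries stood apart. *Psd2*, a gene of the ARF exchange factor family, fell from 256, 257 and 266 CPM to 55.0, 41.3 and 49.1 CPM in WT and from 73.9, 74.8 and 74.7 CPM to 28.3, 25.6 and 31.8 CPM in *R90W/+* (FDR = 0.000979), so it was low at both ages in the mutant. The calls of *4921511H03Rik*, *Gm13301* and *Gm17327* did not hold when single libraries were left out, with an FDR up to 0.117, 0.085 and 0.052.

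The most negative were *Col3a1* (−1.93), *Egr1* (−1.48), *Tac2* (−1.47), *Dnahc9* (−1.46) and *Gm15857* (−1.45). *Tac2*, which encodes neurokinin B, rose from 1.003, 0.791 and 0.992 CPM to 19.1, 18.3 and 20.7 CPM in WT and from 2.36, 2.52 and 2.22 CPM to 20.9, 17.3 and 13.1 CPM in *R90W/+*. *Dnahc9*, an axonemal dynein gene, rose from 14.9, 10.6 and 12.8 CPM to 82.6, 56.8 and 58.4 CPM in WT, and was at 7.36, 9.73 and 12.1 CPM and at 18.3, 17.3 and 17.9 CPM in *R90W/+*. For *Tac2* the genotypes were apart at P10 and overlapped at P21, for *Dnahc9* the reverse. *Gm15857* fell in both genotypes, to 9.05, 8.34 and 8.03 CPM in WT and to 1.33, 2.19 and 1.601 CPM in *R90W/+*. It shares exon sequence with *Wdr66* on the other strand, and its difference lost the call with all 30 libraries in a single fit (FDR = 0.139). *Egr1*, an immediate early gene, was at 20.5, 38.3 and 45.4 CPM in *R90W/+* at P21, and it and *Col3a1*, a fibrillar collagen gene, lost the call when most single libraries were left out, with an FDR up to 0.128 and 0.11.

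**Figure D4:**
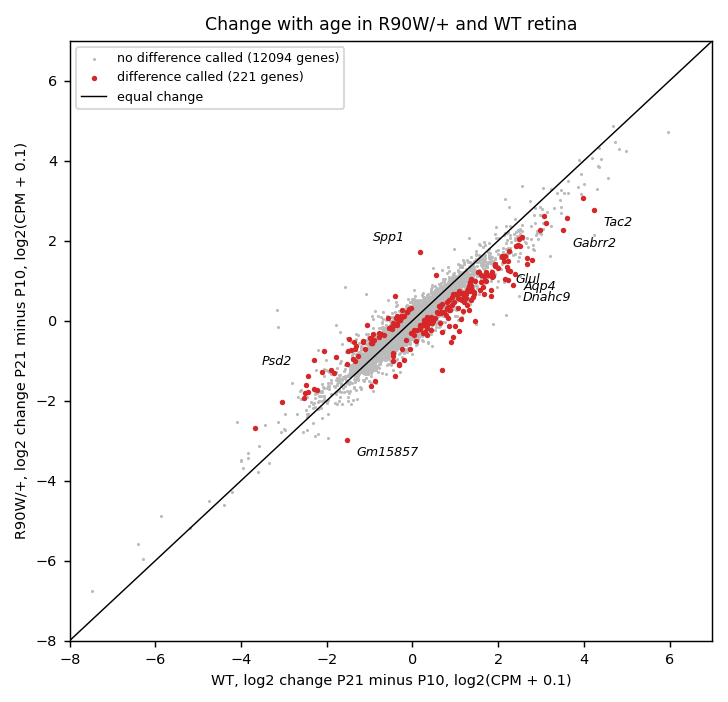
Log2 change from P10 to P21 in WT (horizontal axis) and in R90W/+ (vertical axis) on log2(CPM + 0.1), 1 point per gene of 12315, with the 221 genes whose change differed in red and equal change as a line. In 160 of the 221 genes the R90W/+ change has the sign of the WT change and lies nearer to 0. Spp1 (1.72 in R90W/+, 0.18 in WT) and Gm15857 (−2.98 and −1.53) are not among them.

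**Figure D5:**
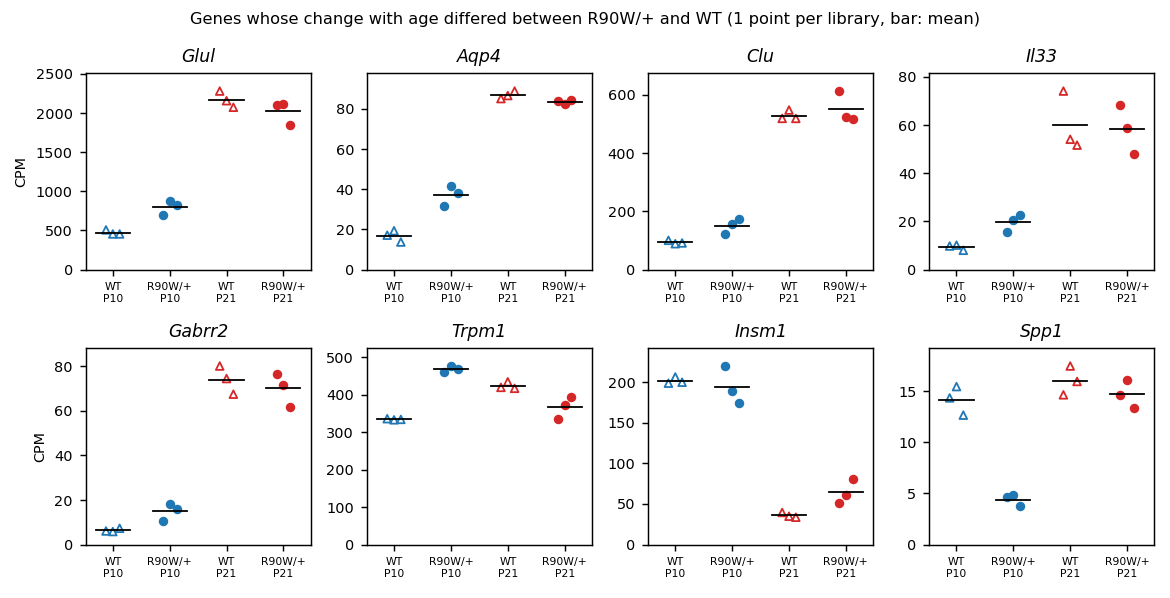
CPM in each WT (open triangles) and R90W/+ (filled circles) library at P10 (blue) and P21 (red), with group means as bars, for 8 genes whose change with age differed between the genotypes. Glul, Aqp4, Clu, Il33 and Gabrr2 are higher in R90W/+ at P10 and near WT at P21, Trpm1 crosses over, Insm1 overlaps at P10 and is higher in R90W/+ at P21 and Spp1 is low in R90W/+ at P10.

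Against *E168d2/+*, which shares the 6 *R90W/+* libraries with the comparison above, 73 of 12304 genes (0.593%) differed in their change with age, 13 (0.106%) with a more positive and 60 (0.488%) with a more negative change in *R90W/+*, and 1617 had an unadjusted p under 0.05. The split was 27 and 41 when libraries were scaled to a common median, 25 and 51 after quantile normalization, 5 and 11 without the *R90W/+* P21 libraries A and C, and 4 and 4 without the 3 libraries rich in crystallins. *Drd4*, the dopamine receptor of photoreceptors, went from 34.7, 55.1 and 55.4 CPM to 126, 137 and 147 CPM in *R90W/+* and from 7.45, 4.6 and 3.63 CPM to 89.1, 127 and 116 CPM in *E168d2/+* (difference −2.90 ± 0.315, FDR = 0.00103). *Glp2r*, a peptide hormone receptor gene, was at 127, 74.0 and 71.6 CPM and at 134, 139.8 and 141 CPM in *R90W/+*, and at 11.7, 12.2 and 9.71 CPM and at 75.6, 142 and 89.7 CPM in *E168d2/+* (−2.48 ± 0.303, FDR = 0.00162). Both genes stood far lower in *E168d2/+* at P10 and overlapped at P21. *Glp2r* shares exon sequence with *Gas7* on the other strand, so those reads cannot be assigned with certainty. *Gm12802* fell to 0.411, 1.17 and 1.18 CPM in *R90W/+* but was at 21.5, 14.6 and 23.7 CPM in *E168d2/+* at P21 (−3.44). *Egr1* (−2.10) and *Slc6a2* (−2.05), the noradrenaline transporter gene, completed the negative set.

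The most positive differences from *E168d2/+* were *Aim2* (1.29), *Rxrg* (1.10), *Dera* (1.06), *Sema6c* (0.91) and *Cltb* (0.82). *Rxrg*, a retinoid receptor of cones, was at 14.1, 14.7 and 13.3 CPM and at 10.6, 8.48 and 9.02 CPM in *R90W/+*, and at 33.0, 33.7 and 29.7 CPM and at 9.53, 8.63 and 11.98 CPM in *E168d2/+*, so the genotypes were apart at P10 and overlapped at P21. *Sema6c*, a guidance gene, went from 35.9, 35.1 and 36.1 CPM to 57.0, 74.2 and 68.3 CPM in *R90W/+* and was at 27.9, 32.5 and 29.7 CPM in *E168d2/+* at P21. The *Dera*, *Egr1* and *Slc6a2* differences lost the call without several single libraries, with an FDR up to 0.0989, 0.0672 and 0.126. *Aim2* and *Rxrg* lost it without the P21 libraries A and C (FDR = 0.113 and 0.13), and *Drd4* and *Glp2r* without the 3 libraries rich in crystallins (0.0529 for both). The number of genes was 219 without the *E168d2/+* P21 library B and 33 without C, 29 without the *E168d2/+* P10 library B, 26 and 25 without the *R90W/+* P10 libraries B and C, and 34 without the *R90W/+* P21 library A.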

How the data were processed

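RNA of whole retinas was sequenced as single reads of 42 bases, from poly(A) RNA per the methods, while the labels add a kit that removes ribosomal RNA. Per the labels and the methods, alignment was to mm9 (TopHat2 2.0.5) and counting on UCSC genes (HTSeq 0.6.1p1), and the authors deposited CPM for 12573 genes, that is, reads on a gene scaled to a fixed library total. The deposited fold changes, p-values and FDR come from the authors' own edgeR 3.6.8 comparisons and were not used. Of the columns with values per sample 0 were left without a sample. Some 20 symbols read as dates in the table and cannot be named.

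The tests used log2(CPM + 0.1) in limma 3.58.1 in R 4.3.3 (eBayes with a variance trend, two-sided, Benjamini-Hochberg over all genes tested). Count models were not run, since the deposited values are not counts. Genes needed 5 CPM or more in all 3 libraries of 1 of the groups compared, and 10 lens crystallins were left out. Each maturation was fitted on its own 6 libraries and called at an FDR of 0.05 with a fold of 2. Differences in the change with age were interactions over 12 libraries, called on the FDR alone. Fold changes understate low genes because 0.1 CPM was added. The replicates are separate pools of mice.

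The genes compared and 32 gene lists were chosen with earlier results of these data known. Named are the 10 largest rises and falls without overlap, up to 4 called and 2 other members of a list, *Crx*, and the 5 largest differences in each direction. *Pde6b*, *Trpm1*, *Nid1*, *Col4a1*, *Dct*, *Rgs9bp*, *Grk1*, *Gucy2e*, *Pias3*, *Samd7*, *Kdr*, *Ldha* and *Calb1* were partly chosen after their values were seen. Some genes that the rule names are not reported here. Exon overlaps were read from GENCODE on mm9. Among further named genes *Glp2r*, *Dnahc9*, *Egr1*, *Gm17327*, *Ndrg1*, *Bhlhe40*, *Glra1* and *Hspa1a* share exon sequence with a gene on the other strand. *Top2a* does so with a gene on the same strand, and *Gm13301* with genes on both. Promoters came from the RefSeq table of GRCm38.p6. The alternatives were 1 or 0.01 CPM added, a filter of 1 CPM or none, 2 other scalings, no trend, all 30 libraries in a single fit, a replicate block and each library left out. Leaving out libraries rich in crystallins was added after seeing the data. The steps were tested on simulated data. Python 3.11.15, pandas 2.3.3 and matplotlib 3.10.9 were used for tables and figures.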

Additional observations from a re-analysis of the deposited data

Results flagged for a closer look

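The change with age differed between *R90W/+* and WT in 221 genes and between *R90W/+* and *E168d2/+* in 73 genes, by the interaction of genotype and age. Among the named genes the log2 change in *R90W/+* less that in WT was more negative for *Col3a1* (−1.93), *Egr1* (−1.48), *Tac2* (−1.47), *Dnahc9* (−1.46), *Gm15857* (−1.45), *Drd4* (−1.26), *Gabrr2* (−1.26), *Aqp4* (−1.21), *Il33* (−1.10), *Glp2r* (−1.02), *Glul* (−0.86), *Penk* (−0.71), *Clu* (−0.62), *Hlf* (−0.56) and *Slc16a1* (−0.50). It was more positive for *Spp1* (1.54), *4921511H03Rik* (1.30), *Gm13301* (1.30), *Psd2* (1.04), *Gm17327* (1.03) and *Insm1* (0.87).

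Against *E168d2/+* the same difference was −3.44 for *Gm12802*, −2.90 for *Drd4*, −2.48 for *Glp2r*, −2.10 for *Egr1* and −2.05 for *Slc6a2*, and 1.29 for *Aim2*, 1.10 for *Rxrg*, 1.06 for *Dera*, 0.91 for *Sema6c* and 0.82 for *Cltb*. The 2 comparisons share the *R90W/+* libraries. *Egr1* lost its call in 9 of 12 cases with a single library left out against WT and in 3 of 12 against *E168d2/+*.

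Lens crystallins, which no comparison used, were above every WT library in 5 of the 6 *R90W/+* libraries: 0.00688% and 0.132% of the listed CPM in the P10 libraries B and C, and 1.45%, 0.0325% and 2.84% in the P21 libraries A, B and C.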

How the results depend on the processing

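The counts of genes higher (396) and lower (386) in *R90W/+* stayed within 1.5 times under all alternatives run, from 358 to 539 and from 261 to 442, with 361 to 432 and 373 to 411 when single libraries were left out. The 1077 genes called in WT ranged from 941 to 1145 and from 1064 to 1109. The difference in median change of genes chosen in WT kept its sign, from −0.30 to −0.22 for rising and from 0.0888 to 0.16 for falling genes when single libraries were left out. The difference from WT (221 genes) was 124 without the variance trend, 114 with all 30 libraries in a single fit, 85 without the *R90W/+* P21 libraries A and C, 62 without the 3 libraries rich in crystallins, and 99 to 415 when single libraries were left out. The difference from *E168d2/+* (73 genes) was 536 with all 30 libraries in a single fit, 16 and 8 without the 2 and the 3 libraries rich in crystallins, and 25 to 219 when single libraries were left out. The causes were not tested, and the settings without 2 or 3 libraries rest on fewer samples. Samples with the same letter did not deviate together across age, with correlations of −0.239, 0.135 and −0.216 in *R90W/+* and 0.015, 0.035 and 0.12 in WT, so the letters are not taken as pairs. A replicate block left 396 and 386 genes in *R90W/+* and gave 190 for the difference from WT and 48 for that from *E168d2/+*. Among named genes 1758 values of the change with age stayed on their side, 19 of 8 genes lost and 8 of 2 genes gained the call. For the differences 369 stayed and 91 of 13 genes lost the call. No value reversed. Depth limits genes near 0, and the interval of the fold is unknown there.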

Other observations

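The 3 tested genes of oligodendrocytes and myelin, cells that a normal mouse retina lacks, met the FDR with lower values at P21 and a median of −0.44 (under 2-fold), as 46.5% of all tested genes did with a lower value. *Dbp* and *Per3*, genes of the clock, changed with age by a different amount in *R90W/+* than in WT, by −0.72 (FDR = 0.0133) and −0.41 (FDR = 0.0164). *Dbp* stood at 32.4, 34.6 and 35.5 CPM in *R90W/+* and 23.8, 21.2 and 21.1 CPM in WT at P10, and at 60.3, 77.04 and 67.2 CPM and 62.9, 77.3 and 77.3 CPM at P21. *Ccnd1*, a cyclin of the entry into division, fell from 43.1, 46.0 and 46.5 CPM to 17.8, 15.7 and 18.8 CPM in WT, and stood at 32.6, 28.0 and 31.7 CPM and at 24.7, 18.4 and 20.8 CPM in *R90W/+* (difference 0.84, FDR = 0.00738). *Car8*, a gene of bipolar cells, rose less in *R90W/+* (−0.64, FDR = 0.00228). Without the 3 libraries rich in crystallins the FDR was 0.166 for *Dbp*, 0.158 for *Per3*, 0.0717 for *Ccnd1* and 0.0209 for *Car8*. These 4 genes were named after their values were seen.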
